A study of Mus musculus with 2 samples.

Results

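Genes of the epithelial keratins, claudins, cadherins and cell junctions were followed in mouse urogenital ridges that carried a homozygous or a heterozygous deletion of Misr2. The genes were chosen by name, 41 in all: 6 cadherins, 4 keratins, 12 claudins, 4 other tight junction genes, 5 desmosome genes, 4 regulators of epithelial transcription and splicing, and 6 other epithelial membrane and sorting genes. Each was read from every probe set that the platform annotation assigns to it alone, 75 probe sets in total, among the 18193 genes that the annotation names on the array. A homozygous pool (Misr2-/-, described in the labels as not responding to Müllerian inhibiting substance, MIS) was set against a heterozygous pool (Misr2+/-, described as responding to it). Each pool held about 100 ridges of embryos at E14.5, on a mix of C57Bl/6 and 129SVEV, with the gonads removed and the genotype scored with a YFP reporter. Embryos of the control pool thus carried the deletion on 1 allele too, and the labels used here do not give the sex of the embryos. The annotation lists Misr2 as Amhr2, the gene of the type II receptor for MIS, a hormone of the testis under which the Müllerian duct regresses. Each pool was hybridised to 1 Affymetrix array, so there is no replicate and no test, and every value below describes these 2 arrays.

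The urogenital ridge at this stage holds simple epithelial tubes, the Müllerian and Wolffian ducts, within mesenchyme, covered by the coelomic epithelium. Epithelial cells are joined by tight junctions, in which claudins and occludin seal the space between cells, by adherens junctions built on cadherins, and by desmosomes, which tie neighbouring cells together through their intermediate filaments. Keratins 7, 8, 18 and 19 are the intermediate filament proteins of simple epithelia. Loss of epithelial junction proteins, with E-cadherin (Cdh1) as the usual readout, accompanies the change of an epithelium into mesenchyme.

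The targeted gene separated the arrays in the direction of the labels. The 3 Amhr2 probe sets had signals of 10.2, 27.7 and 2.8 in the Misr2-/- pool, against 1549.6, 1047.8 and 181 in the Misr2+/- pool. The brightest of them was at least 13.3-fold lower in the Misr2-/- pool. The position of these probe sets within or outside the deleted sequence was not examined here. The Misr2-/- array was brighter as a whole, with a median signal of 139.4 against 116.5 for the Misr2+/- array, a shift of 0.26 on the log2 scale. Differences are therefore given as log2 of the Misr2-/- signal minus log2 of the Misr2+/- signal after each array was divided by its median. Each array's median also served as its floor: a gene counted as measured when its brightest probe set reached the floor in at least 1 pool, and a signal under the floor was set to it. As deposited, every difference is 0.26 higher, and scaled to the 9 hybridisation spikes every difference decreased by 0.39, so the sign of a small difference depends on the scaling. Such constant factors leave the order of genes in place, while quantile normalization and loess, also run, can change it.

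Of the 41 genes, 39 were measured, beside 11431 of the 18193 genes on the array, and 2, Cldn10 and Tjp3, lay under the floor in both pools. Counts of genes under the floor in the lists below are to be read beside the same share of the array. The epithelial genes were slightly to the higher side in the Misr2-/- pool, with a median log2 difference of 0.14 (0.40 as deposited, and -0.24 against the spikes, where it turns negative) beside 0.04 for all 11431 measured genes. Above 0 were 31 of the 39 genes, 79.5%, beside 57.7% of all measured genes (5 of the 39 against the spikes). The counts above 0 of the smaller lists below are to be read beside the same 57.7%. Counts as deposited are to be read beside 92.9% of all measured genes above 0, and counts against the spikes beside 6.98%. Above the median of all genes, a position that a constant scaling factor leaves in place, were 28 of the 39. Among the 5810 genes with a mean signal from 342 to 1677, the interquartile range of the members, the median was 0.05 and 60.7% were above 0. A different number of epithelial cells in a pool and a different amount of RNA per epithelial cell cannot be told apart in such pooled tissue.

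These differences were small. A difference of at least 1.5-fold toward the Misr2-/- pool was reached by 1 gene, Cldn11, which is 2.56% of the 39, beside 2.08% of all measured genes. None of the 39 was 1.5-fold lower, beside 0.884% of all genes, so that at this size the epithelial genes did not stand apart from the array. At a lower threshold, a log2 difference of 0.32, 7 of the 39 were higher (17.9%, beside 10.3% of all genes) and 1, Dsc2, was lower (beside 4.31%). No member differed 2-fold, a size that 0.236% of all genes passed on the higher and 0.219% on the lower side. As a measure of technical noise, the log2 differences of the 2 brightest probe sets of 1 gene were subtracted from each other. The SD of the result, divided by the square root of 2 to stand for 1 probe set, was 0.23 (5264 genes). It is called the spread between probe sets below, and the undivided SD is larger. Within this distance of 0 lay 26 of the 39 genes, 66.7%, beside 73.7% of all genes. This spread leaves out any variation between pools. None of the members' probe sets is among the 739 of the authors' deposited table of fold changes. These 739 are a small part of the array, so at the same share few of the members' probe sets would be among them. Their absence therefore does not set the members apart from the array.

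**Figure D1:**
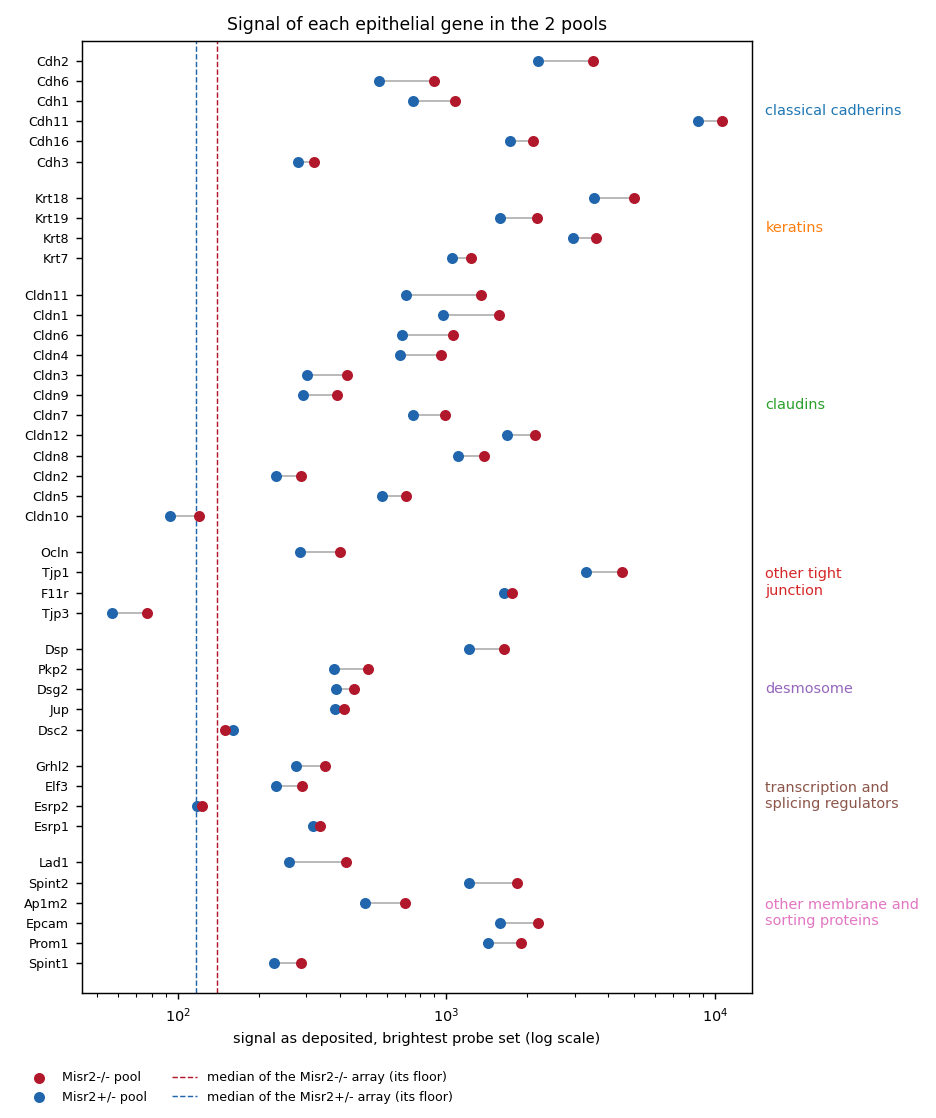
Signal as deposited of the brightest probe set of each of the 41 genes (horizontal log axis) in the Misr2-/- pool (red) and the Misr2+/- pool (blue), grouped by role, with the median of each array as a dashed line. Red lies right of blue for all genes but Dsc2, on arrays whose medians were 139.4 and 116.5, and Cldn10 and Tjp3 lie under both floors.

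The claudins, the multi-pass membrane proteins that set the tightness and ion selectivity of the tight junction, all lay on the higher side. Of 12 claudins 11 were measured, and 11 of 11 were above 0 (2 of 11 against the spikes), beside 57.7% of all measured genes. Their median log2 difference was 0.16, and 11 of 11 were also above the median of all genes. With quantile normalization, loess or the median of each gene's probe sets, 10 of 11 were above that median. Without probe sets marked as variants, shared or cross-hybridising, 9 of 10 were. The range was wide, from 0.04 for Cldn5 to 0.68 for Cldn11. Measured by the median of each gene's probe sets in place of the brightest, 10 of 11 were above 0.

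Cldn11, the claudin of myelin and of the Sertoli cell barrier, had a signal of 1347.3 in the Misr2-/- pool, against 705.2 in the Misr2+/- pool. It was 1.60-fold higher in the Misr2-/- pool and lay above 98.8% of all measured genes. This gene stayed above 0 under every scaling, with 0.29 against the spikes. It rests on 1 probe set, so no other probe set of the gene bears on it. The next lower member was Lad1 at 0.44.

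Cldn1, a barrier-forming claudin, had signals of 1566.8 in the Misr2-/- and 974 in the Misr2+/- pool, a log2 difference of 0.43. Its other measured probe set went the other way, with 231.9 in the Misr2-/- and 275.2 in the Misr2+/- pool and a log2 difference of -0.51. The probe sets of Cldn1 therefore do not give the gene a common direction, and 2 further ones were under the floor.

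Cldn6, a claudin typical of embryonic epithelia, had signals of 1057.6 in the Misr2-/- and 684.5 in the Misr2+/- pool, a log2 difference of 0.37 (-0.02 against the spikes). Cldn4, a claudin found in many tight epithelia, had 950.8 and 673.3 in the same order, a log2 difference of 0.24. Cldn3, which like Cldn4 lies on chromosome 5, had 425.2 in the Misr2-/- and 301.2 in the Misr2+/- pool at its brightest probe set, also 0.24. The 4 probe sets of Cldn3 were all measured and all higher, from 0.24 to 0.82, the widest set of same-direction values among the members. All 4 have identifiers that mark transcript variants or cross-hybridising sequence.

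The other claudins were closer to the median of all genes. Cldn9 (0.16), Cldn7 (0.13), Cldn12 (0.09), Cldn8 (0.06), Cldn2, which forms a cation pore (0.05), and Cldn5, the claudin of endothelium (0.04), all differed by less than the spread between probe sets. All 6 turn negative against the spikes. Cldn12 had a second probe set at 0.07. Cldn10 had 119.3 in the Misr2-/- and 93.3 in the Misr2+/- pool, each under its array's floor.

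The remaining tight junction genes were mixed. Ocln, which encodes occludin, had signals of 399.9 in the Misr2-/- and 285.7 in the Misr2+/- pool, and its 2 probe sets had log2 differences of 0.23 and 0.22. Tjp1, which encodes the scaffold protein ZO-1, stood at 0.19. F11r, which encodes the junctional adhesion molecule JAM-A, stood at -0.16 (0.10 as deposited), with signals of 1752 in the Misr2-/- and 1636.9 in the Misr2+/- pool. None of the 3 passed the spread between probe sets, and Ocln and Tjp1 turn negative against the spikes. Tjp3, which encodes ZO-3, had 76.8 in the Misr2-/- and 56.9 in the Misr2+/- pool, each under its floor.

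The 6 other epithelial membrane and sorting genes were all above 0, beside 57.7% of all measured genes, and all above the median of all genes. Their median was 0.22, and 1 of 6 was above 0 against the spikes. Lad1, which encodes the basement membrane anchoring protein ladinin, had 421.3 in the Misr2-/- and 259.1 in the Misr2+/- pool, a log2 difference of 0.44. Spint2, an inhibitor of membrane serine proteases, had 1824.4 in the Misr2-/- and 1210.3 in the Misr2+/- pool, 0.33, with a second probe set at 0.13. Epcam, a cell adhesion molecule of most simple epithelia, had 2192.1 in the Misr2-/- and 1584 in the Misr2+/- pool, 0.21, and 0.44 at its second probe set. Each of these genes thus had every measured probe set on the same side. Ap1m2, the epithelial subunit of a clathrin adaptor for basolateral sorting, stood at 0.24, Prom1, a protein of apical membrane protrusions, at 0.14, and Spint1, a relative of Spint2, at 0.07.

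**Figure D2:**
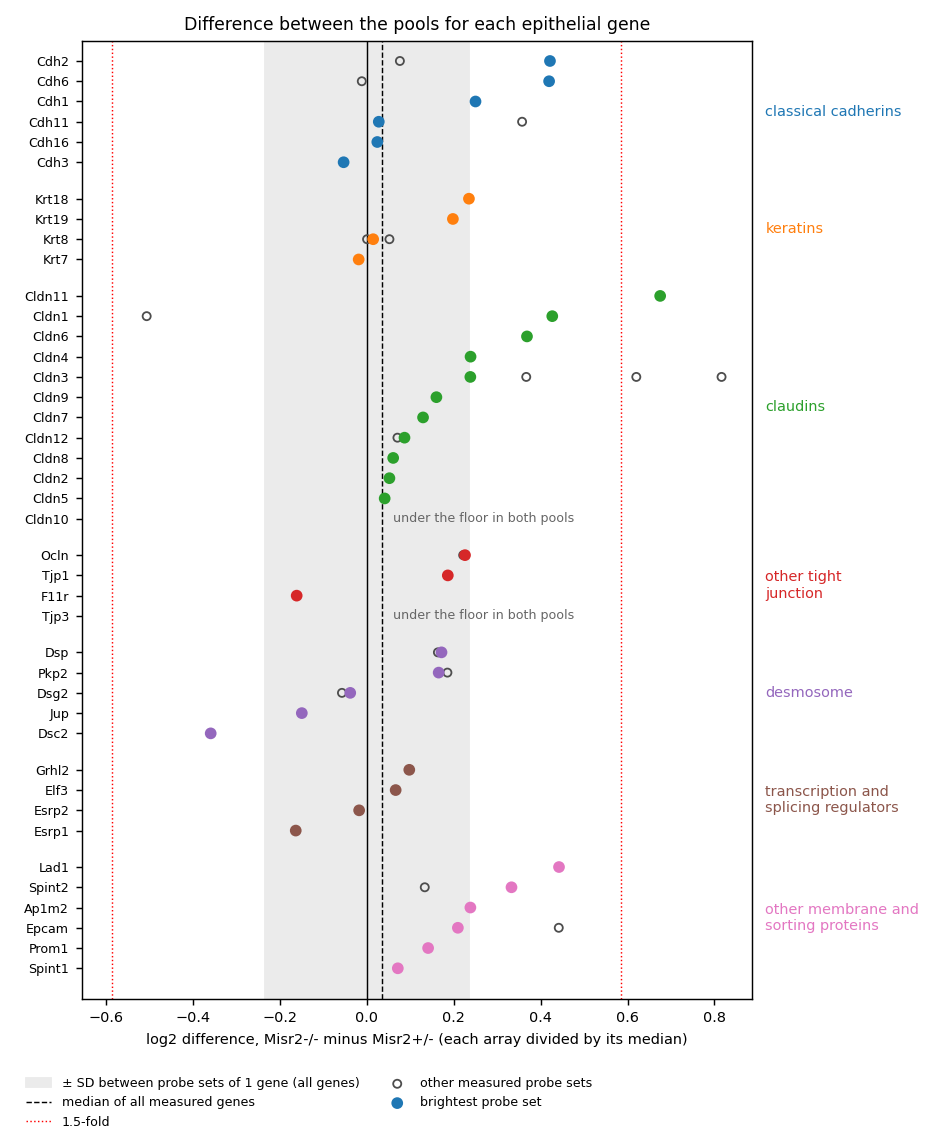
Log2 difference between the Misr2-/- and Misr2+/- pools for each gene (horizontal axis, arrays divided by their medians), as filled points for the brightest and open points for other measured probe sets. The filled points of all 11 measured claudins lie at or above 0.04 (against the spikes 2 of 11 above 0, beside 6.98% of all measured genes). Those of the desmosome genes lie between -0.36 and 0.17. An open point of Cldn1 lies at -0.51, and 1 filled point, Cldn11, lies past the 1.5-fold line.

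Promoter sequences from RefSeq (build GRCm38.p6) are shown for the claudin with the highest value, Cldn11, and for Cldn6, Cldn4 and Epcam, whose promoters hold the letters that the epithelial repressors of the Snail and ZEB families are known to bind. These factors bind E-boxes of the form CACCTG, or CAGGTG on the other strand, and are known for repressing Cdh1. The windows are the 250 bases before the annotated start, at chr3:31149670-31149919 (plus strand), chr17:23679115-23679364 (plus strand), chr5:134946935-134947184 (minus strand) and chr17:87635729-87635978 (plus strand), each written 5′ to 3′ along the gene, with capitals for each CACCTG or CAGGTG.
Cldn11: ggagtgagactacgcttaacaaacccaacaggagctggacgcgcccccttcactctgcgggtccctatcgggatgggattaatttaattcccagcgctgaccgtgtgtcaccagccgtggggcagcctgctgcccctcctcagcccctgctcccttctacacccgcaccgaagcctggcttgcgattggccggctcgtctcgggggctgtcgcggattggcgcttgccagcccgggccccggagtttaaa
Cldn6: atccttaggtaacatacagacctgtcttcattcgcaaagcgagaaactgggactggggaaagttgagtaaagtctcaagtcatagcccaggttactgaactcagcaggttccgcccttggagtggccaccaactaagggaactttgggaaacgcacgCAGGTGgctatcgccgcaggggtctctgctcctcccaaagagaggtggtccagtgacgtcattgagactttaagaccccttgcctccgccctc
Cldn4: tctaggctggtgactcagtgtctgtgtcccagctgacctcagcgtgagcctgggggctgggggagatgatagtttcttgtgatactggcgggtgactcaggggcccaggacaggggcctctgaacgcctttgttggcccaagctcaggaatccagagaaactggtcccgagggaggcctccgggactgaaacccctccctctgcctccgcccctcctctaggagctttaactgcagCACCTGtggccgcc
Epcam: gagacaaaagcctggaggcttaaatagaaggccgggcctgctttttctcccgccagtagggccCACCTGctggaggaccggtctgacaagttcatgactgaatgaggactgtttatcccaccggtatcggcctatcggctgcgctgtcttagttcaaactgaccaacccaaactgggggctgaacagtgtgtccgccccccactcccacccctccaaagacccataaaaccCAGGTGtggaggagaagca
In these letters Cldn11 has 0 such E-boxes, Cldn6 and Cldn4 have 1 each, and Epcam has 2. The table held 34 promoters for 27 of the 41 genes, and none for Cdh1, which is therefore in none of the motif counts. CACCTG or CAGGTG occurred in 15 of these 34 promoters, 44.1%, and in 17.2% of all 32851 promoters in the table. Member promoters were richer in G and C, with a median of 59.8% beside 52.4%. In the G and C range of 55.8% to 63.5%, the motif was in 10 of 16 member promoters and in 21.4% of all 6134. The palindrome AACCGGTT, the core bound by grainyhead factors such as Grhl2, was in 0 of the 34 and in 0.116% of all promoters, and CACGTG, another E-box, in 1 of the 34 and in 6.02% of all. A match of letters is a description and not a site.

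Genes with and without this E-box had medians close to each other. The 13 measured genes with CACCTG or CAGGTG had a median log2 difference of 0.21 (range -0.16 to 0.37), and the 12 measured genes whose listed promoters lack it had 0.18 (range -0.15 to 0.68). The repressors themselves were close to or below 0. Snai1 had signals of 407.9 in the Misr2-/- and 452.3 in the Misr2+/- pool, a log2 difference of -0.41 (-0.15 as deposited), with 2.53% of measured genes lower, on 1 probe set. Snai2 stood at -0.10, Zeb1 at -0.03 and Zeb2 at -0.23, but the probe sets of Zeb1 ran from -0.26 to 0.31, those of Zeb2 from -1.03 to 0.45 and those of Snai2 from -0.10 to 0.36. Vim, which encodes the mesenchymal filament protein vimentin, stood at -0.10, with probe sets up to 0.23. Of 13 measured mesenchymal and repressor genes 6 were above 0 and 7 under it, and their median was -0.00 (1 of 13 above 0 against the spikes), and Twist1 (0.50) and S100a4 (0.33) were the highest.

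The cadherins differed among themselves. Cdh2, the N-cadherin of mesenchyme and of some epithelia, had 3509.4 in the Misr2-/- and 2189.6 in the Misr2+/- pool, a log2 difference of 0.42, and its second probe set stood at 0.08. Cdh6, a cadherin of the developing kidney, had 899.5 in the Misr2-/- and 562 in the Misr2+/- pool, also 0.42, while its second probe set stood at -0.01. In each of these genes the brightest probe set was therefore well above the other one. Cdh1 had 1072.5 in the Misr2-/- and 753.5 in the Misr2+/- pool, a log2 difference of 0.25 (-0.14 against the spikes), above 84.1% of measured genes, on 1 probe set. Cdh11, a mesenchymal cadherin (0.03, and 0.36 at its second probe set), Cdh16, the cadherin of kidney tubules and their precursor ducts (0.02), and Cdh3, or P-cadherin (-0.05), lay close to 0. Cdh1 and Cdh2 were thus on the same side as scaled here and as deposited. Against the spikes their brightest probe sets were on opposite sides of 0. There Cdh2 was at 0.04, within the spread between probe sets, and its second probe set turns negative.

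Of the 4 keratins 2, Krt18 and Krt19, lay above the median of all genes and 2, Krt8 and Krt7, lay below it. Krt8 had 3590.4 in the Misr2-/- and 2969.5 in the Misr2+/- pool, and its 3 probe sets had log2 differences from 0.00 to 0.05. Krt18, its filament partner, had 4997.2 in the Misr2-/- and 3547.8 in the Misr2+/- pool, a log2 difference of 0.24, and Krt19 had 2166.8 and 1578.2 in the same order, 0.20. Krt7 stood at -0.02. All 4 were negative against the spikes and positive as deposited. Krt7, Krt8 and Krt18 lie on chromosome 15, as Amhr2 does.

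The desmosome genes among the members were not on the higher side, while 4 of 5 other measured desmosome genes, given below, were above 0. Of the 5 members 2 were above 0 (0 of 5 against the spikes, 4 of 5 as deposited), with a median of -0.04. Dsp, which encodes the filament anchor desmoplakin, had 1635.3 in the Misr2-/- and 1212.9 in the Misr2+/- pool, with probe sets at 0.17 and 0.16, and Pkp2, which encodes plakophilin 2, had probe sets at 0.17 and 0.19. The genes of the desmosomal cadherins and of plakoglobin lay below 0. Dsg2 stood at -0.04, with a second probe set at -0.06, and Jup, which encodes plakoglobin, at -0.15 (0.11 as deposited). Dsc2 had 149.5 in the Misr2-/- and 160.2 in the Misr2+/- pool, a log2 difference of -0.36, just above the floors of 139.4 and 116.5, and was the one member with the lower deposited signal in the Misr2-/- pool.

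The regulators were near the median of all genes. Grhl2, a grainyhead transcription factor that activates Cdh1 and claudin genes, had 353.1 in the Misr2-/- and 275.7 in the Misr2+/- pool, a log2 difference of 0.10. Elf3, an ETS factor of epithelia, stood at 0.07. Esrp1, a splicing factor that favours the epithelial forms of transcripts, had 339.1 in the Misr2-/- and 317.3 in the Misr2+/- pool, -0.16, and its relative Esrp2 (-0.02) had 122.5 in the Misr2-/- pool, under the floor, and 117.9 in the Misr2+/- pool. None passed the spread between probe sets. As deposited all 4 turn positive, and against the spikes all 4 are negative.

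Across the members the second and further probe sets repeated the pattern in part. Of 13 genes with at least 2 measured probe sets, 11 had all of them in the same direction, and 2, Cdh6 and Cldn1, had them in both. Of the 16 measured probe sets that were not the brightest of their gene, 13 had a positive difference, and the middle value of the 16 was 0.15. They are not independent, as several belong to Cldn3 and Krt8. No share for such probe sets of all genes is given here, so this count has no background beside it. Spike scaling lowers each value by 0.39, which turns that middle value negative. The spread between probe sets, again divided by the square root of 2, was 0.25 over the 13 genes with at least 2 measured probe sets, beside 0.23 over all genes. Most differences of single members were thus smaller than this spread. It leaves out any variation between pools, so the full error of a single value is not known. The 20 remaining probe sets of members were under the floor in both pools.

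Genes of the same structures outside the 41 were read from lists of related genes. Of 20 measured tight junction and polarity genes 13 were above 0 (2 against the spikes), close to the 57.7% of all measured genes. Their median was 0.09. The highest were Marveld2, which encodes tricellulin (0.60, with 213.6 in the Misr2-/- and 117.8 in the Misr2+/- pool), and Marveld3 (at least 0.51, with a Misr2+/- signal under the floor). Pard6b, a polarity gene, stood at 0.38 and Pard3 at -0.18, with probe sets of Pard3 up to 0.26. Of 8 measured partners of the adherens junction 3 were above 0 (8 as deposited, 1 against the spikes), with a median of -0.05, and Arvcf, a catenin gene, had the highest value, 0.62. Ctnna1, which encodes alpha-catenin, stood at -0.10 and Nectin3 at -0.14, but the probe sets of Ctnna1 ran from -0.23 to 0.18 and those of Nectin3 from -0.15 to 0.65. Of 12 further claudins 2 were measured, Cldn15 (0.07) and Cldn34c1 (0.04), and both turn negative against the spikes.

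The list of other epithelial genes had more of the larger values. Of 12 measured other epithelial genes 11 were above 0 (4 against the spikes), beside 57.7% of all measured genes. Their median was 0.27, beside 0.14 for the 39 members, and 11 further genes of the list were under the floor. The highest were Krtcap3 (0.78), Bspry (0.62), the membrane protease gene St14 (0.56, with 278.2 in the Misr2-/- and 157.3 in the Misr2+/- pool) and Mal2, an apical transport protein gene (0.42). St14 encodes matriptase, the protease that Spint1 and Spint2 inhibit, and these 3 genes were on the same side as scaled here. Among 5 measured other desmosome genes 4 were above 0 (2 against the spikes), with a median of 0.26: Perp (0.75), Evpl (0.55), Ppl (0.26) and Pkp3 (0.13). The 8 genes named from these lists as above 0 had Misr2+/- signals between 118.9 and 303.9, not far above the floor of 116.5, and each of them rests on 1 probe set.

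**Figure D3:**
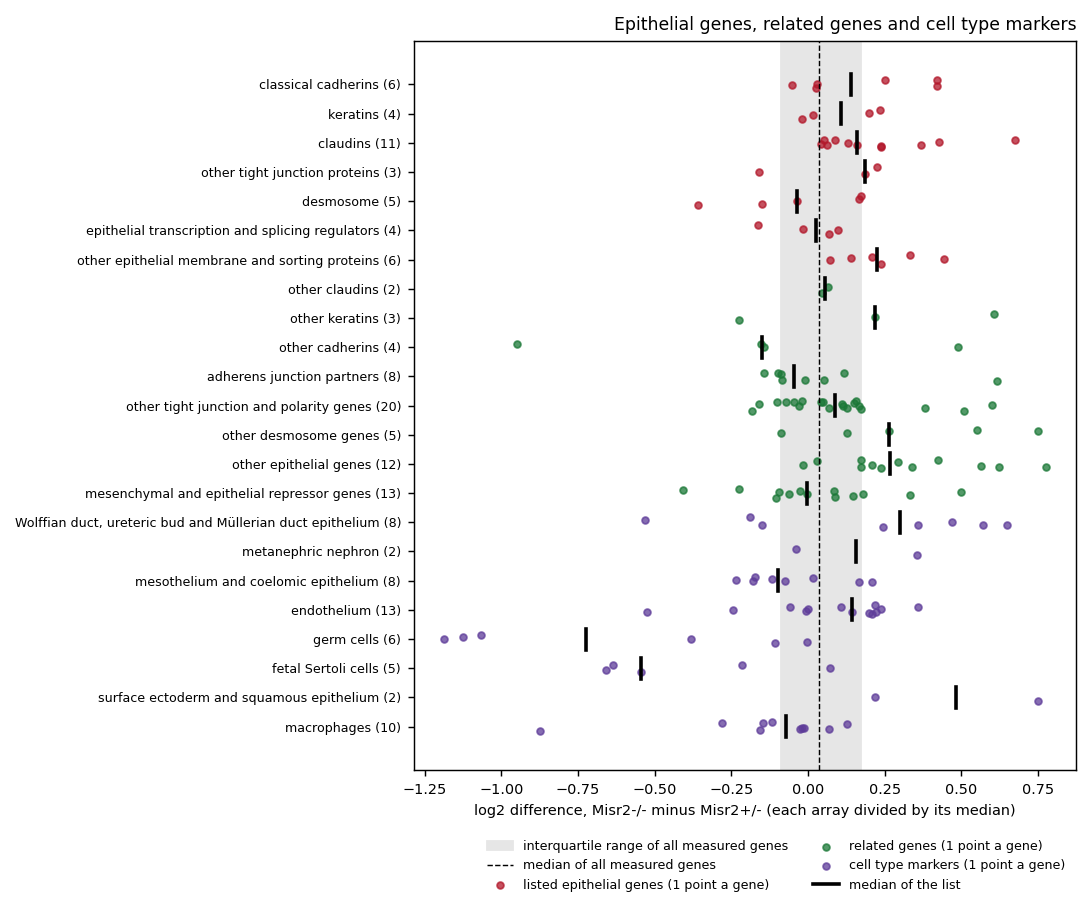
Log2 difference between the Misr2-/- and Misr2+/- pools (horizontal axis) for each measured gene of the epithelial groups (red), related lists (green) and cell type markers (purple), with list medians as black bars and the number of genes in parentheses. The medians of the claudins (0.16) and of the other membrane and sorting genes (0.22) lie right of the all-gene median of 0.04, those of germ cell (-0.72) and fetal Sertoli cell markers (-0.54) lie left of it, and a shift of every value by -0.39 against the spikes turns the first 2 negative.

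Several members are also made by cells that are not duct epithelium, and the markers of those cells are given beside them. Cdh1 and Epcam are known in germ cells as well, and all 6 measured germ cell markers were below 0 (2 of 6 above 0 as deposited), with a median of -0.72 and a summed signal of 5.82 array medians in the Misr2-/- and 11.6 in the Misr2+/- pool, while Mael, Nanog and Tdrd1 were under the floor. Cldn11 and Krt18 are known in Sertoli cells, and of the 5 measured Sertoli cell markers 4 were below 0 (3 as deposited), with a median of -0.54 and a summed signal of 13.0 array medians in the Misr2-/- and 16.7 in the Misr2+/- pool. Amh, which defines fetal Sertoli cells, lay under the floor, at 5.5 in the Misr2-/- and 19 in the Misr2+/- pool, as were Gata4, Sox8 and Sox10. The exception among the measured Sertoli cell markers was Ptgds, at 0.07, named after its value was seen. The part of either gonadal cell type in the values of the members was not tested.

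Markers of the epithelia of the ridge went in different directions. Of 8 measured duct markers 5 were above 0 (3 against the spikes), close to the 57.7% of all measured genes. Their median was 0.30, with a summed signal of 50.9 array medians in the Misr2-/- and 40.3 in the Misr2+/- pool. Ret and Tfap2b were under the floor. Wnt7a of the Müllerian epithelium (0.65, and 0.22 at its second probe set), Wfdc2 (0.57) and Emx2 (0.47) were the highest and Gata3 of the Wolffian duct (-0.53) the lowest. Of 8 measured markers of the mesothelium, the coelomic covering that also makes keratins, 3 were above 0 (8 as deposited, 0 against the spikes), with a median of -0.10 and a summed signal of 97.0 array medians in the Misr2-/- and 97.5 in the Misr2+/- pool, and Msln was under the floor. The part of duct cell number in the values of the claudins and membrane genes was not tested.

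Markers of the other cell types that could contribute went in both directions. Of 13 endothelial markers 8 were above 0 (0 against the spikes), close to the 57.7% of all measured genes. Their median was 0.14, with a summed signal of 101 array medians in the Misr2-/- and 99.6 in the Misr2+/- pool. The endothelial Cldn5 stood at 0.04 and the endothelial cadherin gene Cdh5 at 0.49. Among the markers Kdr, a receptor for vascular endothelial growth factor, stood at -0.53 and Tie1 at 0.36 (-0.03 against the spikes). Of 10 metanephric nephron markers on the array 8 were under the floor, Six2 and Umod among them, and Podxl (-0.04) and Lrp2 (0.35, -0.03 against the spikes) were measured. Of 6 surface ectoderm markers on the array 4 were under the floor, Trp63 and Krt5 among them, and the 2 measured ones, Perp (0.75) and Krt14 (0.22, -0.17 against the spikes, with a second probe set at -0.13), were above 0, with a summed signal of 3.73 array medians in the Misr2-/- and 2.70 in the Misr2+/- pool. Their part in the values of the members was not tested. Macrophage markers were above 0 for 2 of 10 (8 as deposited), with a median of -0.07 and a summed signal of 67.0 array medians in the Misr2-/- and 73.0 in the Misr2+/- pool, and the chemokine receptor gene Cx3cr1 had the lowest value, -0.87, with a second probe set at -0.31.

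The way of processing set the sign of the epithelial median and left its position among all genes. The median of the members lay above that of all measured genes under each of the 13 settings drawn in the plot of medians by setting. Values as deposited and scaling to the spikes, to a percentile or to the authors' constants move both medians by the same amount. Those settings could not change the order of the medians, so they add nothing to the main setting here. The other settings could change it. The number of members above the all-gene median was 28 under each scaling, but a constant factor for each array cannot change that number. Among the scalings only quantile normalization and loess could change it, and there the 28 held Cdh11 in place of Cldn5.

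**Figure D4:**
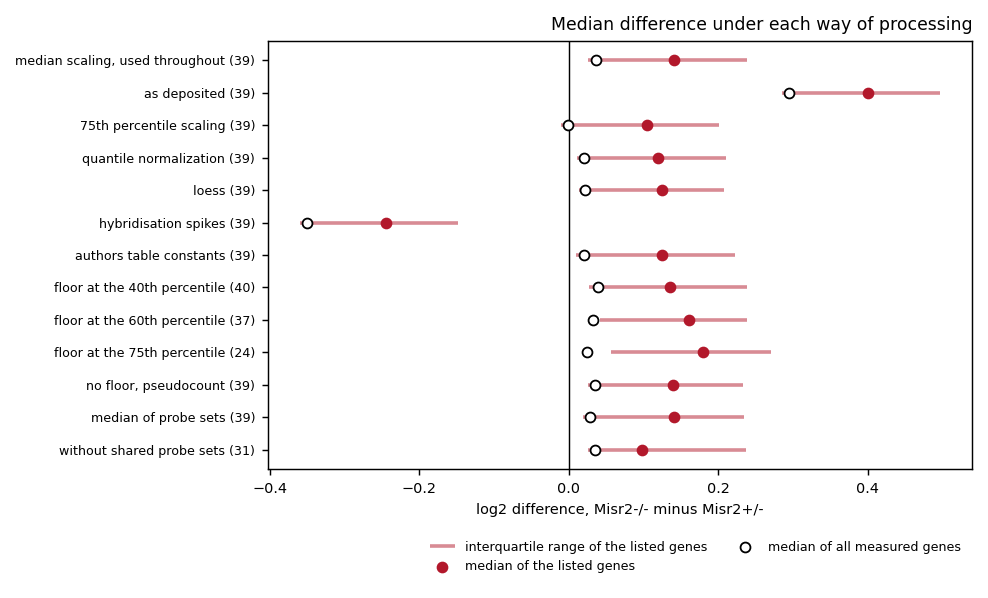
Median log2 difference between the Misr2-/- and Misr2+/- pools (horizontal axis) of the measured epithelial genes (red, with their interquartile range) and of all measured genes (open circles) under each setting, with the number of epithelial genes measured in parentheses. The red points run from -0.24 against the hybridisation spikes to 0.40 as deposited, and each lies right of its open circle. Settings that change only a constant factor for each array move a red point and its open circle together, so their order is fixed there.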

How the data were processed

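Transcript levels were read from the deposited value table as linear intensity, with 1 value for each probe set on each array. GCOS and MAS5 are named, without version or role, per the submitters' processing notes. How the authors scaled these values is not stated in the labels. The authors' deposited table of 739 probe sets gives a signed fold, treated as a score, and was used only to look for members and to derive 2 scaling constants. Of 45101 probe sets 64 were controls. Gene names came from the platform annotation (34945 probe sets with 1 symbol, 932 with several, which were not used), updated through the RefSeq gene table of GRCm38.p6, which held all 41 members. Python 3.11.15 with pandas 2.3.3 and numpy 2.4.6 divided each array by its median and applied the floor at that median, 23379 probe sets being measured in at least 1 pool. Each gene was represented by its probe set with the highest mean signal, and lists are described by counts and medians beside those of all measured genes. The steps were tested on simulated data. The members and gene lists were chosen with earlier results of these data known. All members are named, with up to 4 genes of each other list that had the largest absolute difference, and Zeb1, Zeb2, Snai1, Snai2, Vim and Amhr2; genes under the floor were named after their values were seen. The number of arrays limits the precision.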

Additional observations from a re-analysis of the deposited data

How the results depend on the processing

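Scaling was the choice that moved the values. As deposited, the median log2 difference of the members was 0.40 and 7 members were at least 1.5-fold higher, beside 10.1% of all genes. Scaled to the hybridisation spikes, the median was -0.24, beside -0.35 for all genes, and 5 members were above 0, beside 6.98% of all genes. There 0 members were at least 1.5-fold higher, beside 0.271% of all genes, and 1 was at least 1.5-fold lower, beside 11.1%. Over all genes past 1.5-fold the share on the higher side was 70.2% with median scaling, 96.7% as deposited and 2.39% against the spikes. With median scaling and a log2 difference of 0.32, 7 members were higher (beside 10.3% of all genes) and 1 lower (beside 4.31%). At 2-fold 0 were higher (beside 0.236%). Scaling to the 75th percentile or to the constants behind the authors' table, quantile normalization, loess, floors at the 40th, 60th or 75th percentile, and a pseudocount of 16 in place of a floor moved no single member by more than the spread between probe sets. The floor at the 75th percentile left 24 members. The median of probe sets moved 2 members past that spread, and leaving out probe sets marked as variants, shared or cross-hybridising moved 1, Cldn1, which then stood at -0.51 with 31 members left. Cldn11 was at least 1.5-fold higher in all of these settings except against the spikes. The count above the median of all genes was chosen after the data were seen. No paired analysis was possible because each genotype had 1 array. Genes near the floor, such as Dsc2, Esrp2 and the 2 unmeasured members, are the ones that signal over background limits.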

Other observations

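Among keratins and cadherins outside the listed genes, most were under the floor in both pools: 11 of 14 further keratins and 10 of 14 further cadherins with a probe set. Of all 18193 genes on the array, 11431 were measured. The exceptions held single large values. Cdh10, a cadherin known mainly from the nervous system, had a signal of 346.2 in the Misr2-/- pool, against 558.5 in the Misr2+/- pool, a log2 difference of -0.95, with 0.236% of measured genes lower, and stayed below 0 as deposited. Krt10, a keratin of stratified epithelia, had 1126.9 in the Misr2-/- and 619.1 in the Misr2+/- pool, a log2 difference of 0.61 (0.22 against the spikes), while Krt14 stood at 0.22, with its other probe set at -0.13, and Krt1 at -0.23 with a Misr2-/- signal under the floor. The remaining measured cadherins were Cdh13 (-0.15) and Cdh7 (-0.14), both positive as deposited, and Cdh5, described above.

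Arvcf, which encodes a catenin that binds the tails of classical cadherins, had 306.8 in the Misr2-/- and 167.4 in the Misr2+/- pool, a log2 difference of 0.62, and 0.49 at its second probe set. Nectin2 stood at 0.12, with a second probe set at 0.22. Each of these values is from 1 array per genotype and was not tested.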
